A study of Oryzias latipes with 20 samples.

Results

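Day 90 of a medaka (Oryzias latipes) time course is described here against all other sampling days. Medaka is a small teleost fish used in studies of seasonal reproduction. RNA came from brain tissue that combined hypothalamus, pituitary and the ventral part of the telencephalon. Day length was constant for all fish, and brains were taken 0, 7, 30, 60, 90, 120 or 150 days after a transition to conditions that the labels abbreviate as LW. The members are the 3 of 20 samples labelled 90 days, chosen by that label, and the other 17 samples are 3 each of days 0, 7, 30, 120 and 150 and 2 of day 60. No untreated group stands beside the time course, so the other days serve as the background. Replicate numbers were given here in accession order and only name a sample. The labels do not say whether the samples of a day are separate fish, so the p-values reflect only how far these samples spread, which may be technical.

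The unit is FPKM, the fragments assigned to a gene divided by its length and by the size of the library. Total FPKM per library ran from 374770 to 405678, with the day 90 libraries between 387682 and 394183, and the read depth behind these values is unknown. Of 22615 genes, 15947 had a mean of at least 1 FPKM over the 20 libraries and were tested. Day 150 replicate 2 stood apart, being the highest of all 20 libraries in 2030 genes and the lowest in 1735, against 444 to 1063 and 464 to 1019 genes in the others. Genes that mark the labelled tissue were present in the day 90 libraries, with summed FPKM of 193.4 to 210.8 for hypothalamus markers, 250.6 to 271.5 for telencephalon markers and 3618 to 7779 for pituitary hormones. The list of habenula, optic tectum and cerebellum, which the labels do not name, summed to 1273 to 1332. These sums thus do not show which regions were sampled. Each fold change below is a difference on the log2(FPKM + 1) scale, day 90 minus the mean of the 17 other libraries, with its standard error (SE). This scale understates the change of low genes. P-values are from limma, adjusted by Benjamini-Hochberg over all genes tested.

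Cortisol, the glucocorticoid of fish, binds a receptor that switches on genes such as fkbp5, klf9 and pdk4, and FKBP5 in turn holds that receptor in a state of low affinity. Cytokines and interferons act through STAT proteins, and SOCS proteins, which STATs induce, shut the same receptors off. Glycogen breakdown is set by phosphorylase kinase, an enzyme of catalytic and regulatory subunits that switches on glycogen phosphorylase. These roles are known mainly from mammals.

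At day 90, 20 genes were higher than on the other days (0.125% of genes tested) and 3 were lower (0.0188%). A further measure with no test counts genes whose 3 day 90 values all lay outside the range of the 17 others. All 3 were above that range in 63 genes (0.395%) and below it in 35 (0.219%). Of the 23 genes past the threshold, 15 showed no such overlap, 12 of them higher and 3 lower. In each of the 20 higher genes the day 90 mean exceeded all 6 other day means. Genes called for a high day 90 mean are likely to show this, so it is no further support. At an unadjusted p under 0.05, 1509 genes stood out (9.46%), of which 876 were higher (5.49%) and 633 lower (3.97%). Of all 15947 genes tested, 8012 had a positive difference and 7935 a negative one, which is the background for the list counts below.

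The day 90 libraries did not contribute equally to this set, and no test can be made between single libraries of a day. Replicate 2 lay within the range of the 17 others in 8 of the 20 higher genes. Replicates 1 and 3 were above that range in 7 of these 8. With 1 library left out, the count of higher and lower genes was 2 and 1 without day 90 replicate 1, 97 and 9 without replicate 2, and 5 and 0 without replicate 3. It also depended on libraries of other days. It was 5 and 1 without day 7 replicate 1 or 2, 5 and 0 without either library of day 60, 12 and 1 without day 150 replicate 3, and 14 and 1 without day 150 replicate 1. Without day 0 replicate 1 or 3, 5 genes were lower. Without day 150 replicate 2, the library that stood apart, the counts were 25 and 3. The calls lost without 1 library of another day had adjusted p between 0.0503 and 0.07, so they lay close to the threshold. Those lost without day 90 replicate 1 or 3 had adjusted p between 0.11 and 0.251.

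**Figure D1:**
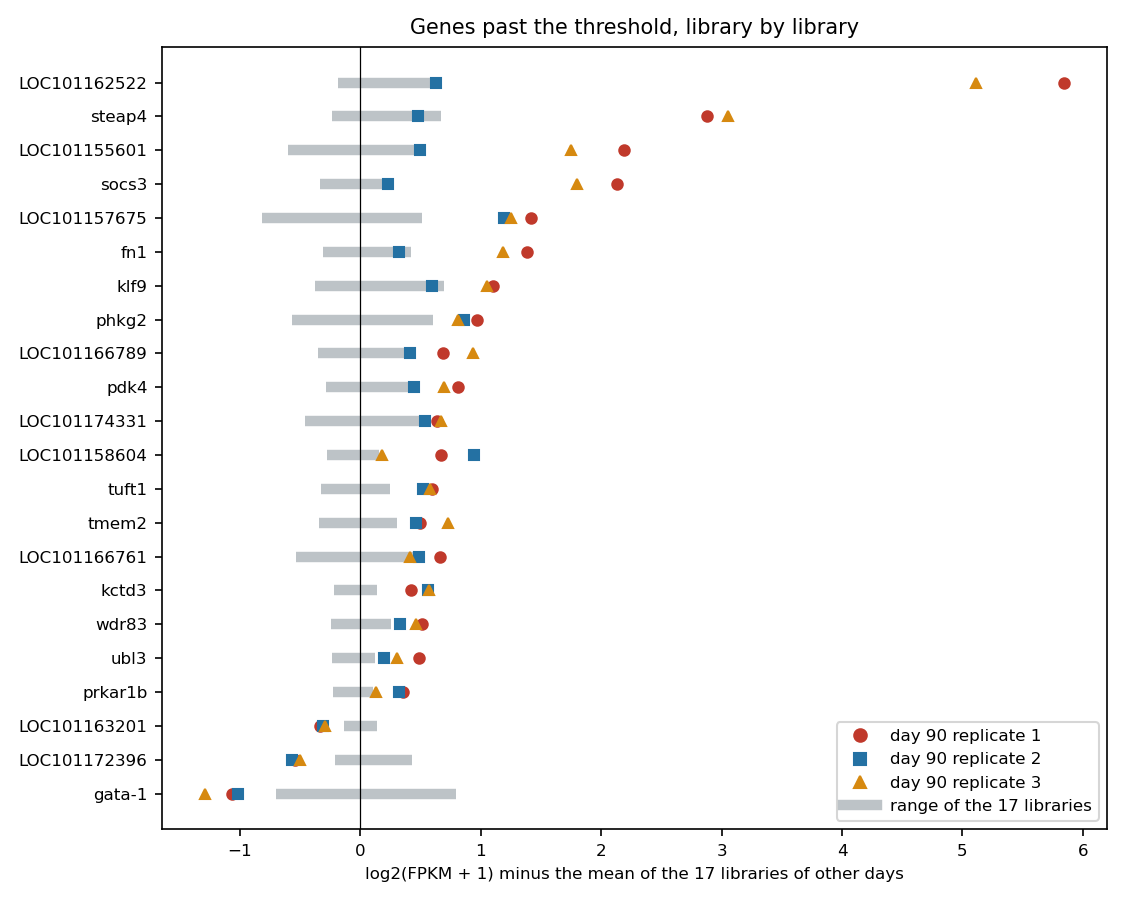
Differences of 22 of the 23 genes past the threshold. Points give each day 90 library's log2(FPKM + 1) minus the mean of the 17 libraries of other days (x axis), and grey bars give the range of those 17 libraries about the same mean. In LOC101162522, steap4, LOC101155601 and socs3 the points of replicates 1 and 3 lie far to the right of the bar while that of replicate 2 lies within it.

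Genes high in all 3 libraries of day 90 were led by LOC101157675, described as a peptidyl-prolyl cis-trans isomerase of the FKBP5 type, a co-chaperone of the glucocorticoid receptor. It stood at 14.73, 12.44 and 12.96 FPKM in replicates 1 to 3 of day 90. Over the 17 other libraries its lowest value was 2.33, the median 5.02 and the highest 7.36 FPKM. Every day 90 library was thus above every other library, and the means of the other days ran only from 3.05 FPKM at day 7 to 6.45 FPKM at day 30. The day 90 mean was 13.38 ± 1.201 FPKM (SD, n = 3) against 5.054 ± 1.478 (SD, n = 17), a log2 difference of 1.29 with an SE of 0.12 (limma adjusted p = 0.000127). No removal of a single library, of 20 tried, ended the call (adjusted p up to 0.00285). It was kept against days 60 and 120 only (1.18, adjusted p = 0.00238), and also with replicate 1 or replicate 3 as the sole day 90 library, but not with replicate 2 alone (1.19, adjusted p = 0.0612).

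The gene kctd3, which encodes a BTB domain protein known to bind an HCN channel in mammals, had the next smallest p. Its values at day 90 were 12.33, 13.72 and 13.8 FPKM, and the 17 others ran from 7.57 through a median of 8.89 to 9.98 FPKM. The 3 values lay close together and well clear of the others. The log2 difference was 0.52 with an SE of 0.06 (adjusted p = 0.000671). This call too survived the removal of any 1 of the 20 libraries (adjusted p up to 0.0164). With a single day 90 library it passed for replicate 3 (adjusted p = 0.0291) and missed for replicates 1 and 2 (adjusted p = 0.0808 and 0.056).

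A pair of subunits of phosphorylase kinase were higher at day 90. The catalytic subunit gene phkg2 was at 15.79, 14.52 and 14.06 FPKM, and the others lay between 4.79 and 12.04 with a median of 7.94. LOC101174331, described as the liver form of the regulatory alpha subunit, was at 26.8, 24.95 and 27.48 FPKM, against 12 to 24.07 with a median of 17.17. In both genes the 3 day 90 values were above all others, and among the other days the highest mean was that of day 30. Their log2 differences were 0.88 (SE 0.13, adjusted p = 0.0177) and 0.61 (SE 0.11, adjusted p = 0.0345). The phkg2 call was lost without day 90 replicate 1 or 3 (adjusted p = 0.188 and 0.11), in a fit with only 2 groups (adjusted p = 0.0723) and against days 60 and 120 only (0.69, adjusted p = 0.153). That of LOC101174331 was lost in 8 of 20 such removals, which were replicate 1 of days 0 and 150, replicates 1 and 2 of days 7 and 60, and replicates 1 and 3 of day 90 (adjusted p up to 0.227). It was also lost in the limma fit with 2 groups (adjusted p = 0.0849) and against days 60 and 120 only (0.54, adjusted p = 0.188). Of the 26 tested genes of glycolysis and glycogen metabolism phkg2 and LOC101174331 were called, 18 had a positive difference, and the median was 0.07. Over all genes tested, 0.125% were called higher, 8012 of 15947 were positive and the median was 0.001. The list was chosen with earlier results of these data known, so its count is no further support.

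Among the remaining genes high in every day 90 library was pdk4, whose kinase switches off pyruvate dehydrogenase and so spares glucose. It was at 22.64, 17.42 and 20.83 FPKM, and the others ran from 10.09 through a median of 12.02 to 17.82 FPKM. Replicate 2 lay just below the highest of them, which was day 30 replicate 3. The log2 difference was 0.65 with an SE of 0.09 (adjusted p = 0.0165), and the call was lost without day 90 replicate 1 or 3 (adjusted p = 0.188 and 0.114). The tuftelin gene tuft1, known from tooth enamel, was named after its values were seen. It was at 38.2, 36.28 and 37.64 FPKM against 19.7 to 29.71 with a median of 25.56. Its 3 values were above all others, with a log2 difference of 0.56 (SE 0.08, adjusted p = 0.0177). It too was lost without day 90 replicate 1 or 3 (adjusted p = 0.188 and 0.114).

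**Figure D2:**
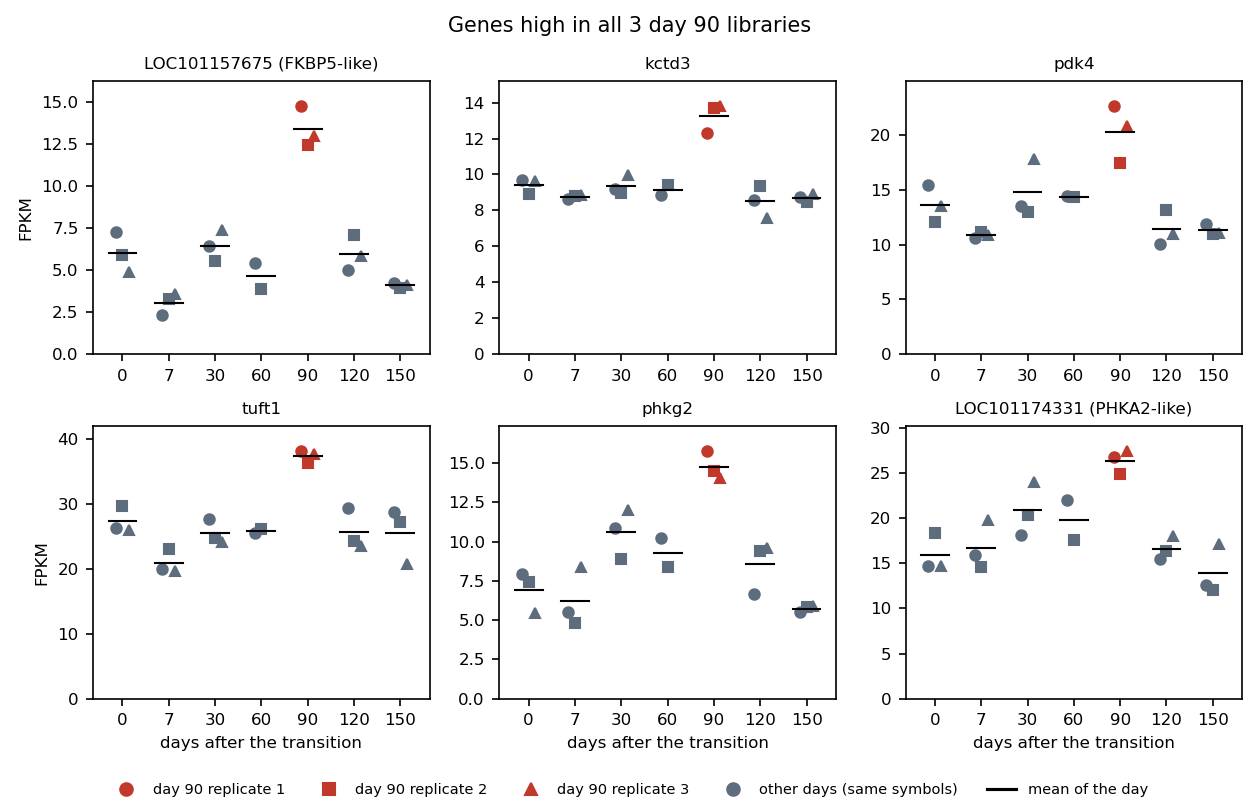
FPKM (y axis, linear, from 0) by day after the transition (x axis) in 6 genes, each point 1 library and each bar the mean of a day. The day 90 libraries, in red, are above all other libraries in 5 of the 6 panels, while in pdk4 replicate 2 (17.42 FPKM) is just below day 30 replicate 3 (17.82 FPKM).

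Further genes in this group are given more briefly, and all were chosen for mention after their values were seen, apart from the keratin gene LOC101166789 and LOC101158604. LOC101166789 (keratin 18, of simple epithelia) was at 20.2, 16.61 and 24.2 FPKM against 9.37 to 16.34 (log2 difference 0.68, SE 0.12, adjusted p = 0.0345). LOC101158604, described as an aminocyclopropane carboxylate synthase-like protein, was at 6.8, 8.4 and 4.54 FPKM against 3.04 to 4.44 (0.60, SE 0.11). It was one of 7 genes that passed with replicate 2 as the only day 90 library. For tmem2, a cell surface hyaluronidase gene in mammals, the values were 5.36, 5.19 and 6.44 FPKM against 2.54 to 4.55. The regulatory subunit gene of protein kinase A, prkar1b, was at 100.28, 97.85 and 85.47 FPKM against 66.41 to 84.21, and ubl3, a ubiquitin-like protein gene, at 49.23, 39.89 and 43.22 against 29.45 to 37.84. These values do not overlap with those of other days, but differences in the last pair are small, 0.27 and 0.33. The scaffold gene wdr83 was at 5.94, 5.13 and 5.72 FPKM against 3.11 to 4.81. LOC101166761, with no protein name, was at 22.04, 19.41 and 18.42 FPKM against 9.09 to 19.79, which overlaps. These 7 calls were lost, among other removals, without replicate 1 or 2 of day 60 and without day 90 replicate 1, with adjusted p up to 0.249. Over all genes tested, 8012 of 15947 were positive and 0.125% were called higher. The skin and epithelium list, to which keratin 18 belongs, had 11 tested members of which 9 were positive and 1 was called. Its summed FPKM was 291.2, 323.4 and 342.7 in replicates 1 to 3, against 216.4 to 331.6 with a median of 278, and the part of skin tissue in the keratin result was not tested.

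A group of called genes, several of them known from inflammation, was high in day 90 replicates 1 and 3 and within the range of other days in replicate 2. LOC101162522, whose protein has no name in the deposited table, had the largest difference of all tested genes past the threshold. It was at 70.25, 0.92 and 41.98 FPKM, while the 17 others ran from 0.09 through a median of 0.2 to 0.93 FPKM. Replicates 1 and 3 were thus far above every other library and replicate 2 was level with the highest of them. The log2 difference of the day was 3.86 with an SE of 0.64 (adjusted p = 0.0339), and by library it was 5.85, 0.63 and 5.12. The metalloreductase gene steap4, induced by inflammatory signals in mammals, was at 9.13, 0.92 and 10.42 FPKM against 0.17 to 1.19 with a median of 0.33. Its log2 difference was 2.14 (SE 0.35, adjusted p = 0.0339). Both are among 65 tested genes that reached the minimum mean of 1 FPKM only through the day 90 libraries, and such genes had to be high there to be tested.

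SOCS3, which shuts off STAT3 signalling, has a pair of entries in the table. The entry with the higher values was at 15.17, 3.35 and 11.91 FPKM, against 1.94 to 3.44 with a median of 2.84. The log2 difference was 1.39 (SE 0.24, adjusted p = 0.0345). The other entry was at 5.43, 2.96 and 7.03 FPKM against 1.93 to 3.47 and did not pass (0.60, adjusted p = 0.164). In both, replicates 1 and 3 were above all 17 others and replicate 2 was among them. LOC101155601 (CEBPB), a transcription factor of the acute-phase response, was at 13.58, 3.51 and 9.71 FPKM against 1.11 to 3.64 (1.48, SE 0.27, adjusted p = 0.0345). The fibronectin gene fn1 followed the same order at 5.1, 1.92 and 4.31 FPKM against 0.89 to 2.13 (0.96, SE 0.17, adjusted p = 0.0345). These 5 calls were lost without day 90 replicate 1 or 3, with adjusted p between 0.215 and 0.251. Each was also lost without day 7 replicate 1 or 2 and without either day 60 library (limma adjusted p between 0.0505 and 0.0613). The same held without the day 0 libraries (adjusted p between 0.0621 and 0.0651) and against days 60 and 120 only (adjusted p between 0.0802 and 0.151). Without replicate 2 they were kept with larger differences, such as 5.48 for LOC101162522, 2.97 for steap4 and 1.97 for socs3 (adjusted p up to 0.000596). With replicate 2 as the only day 90 library their adjusted p was 1.

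**Figure D3:**
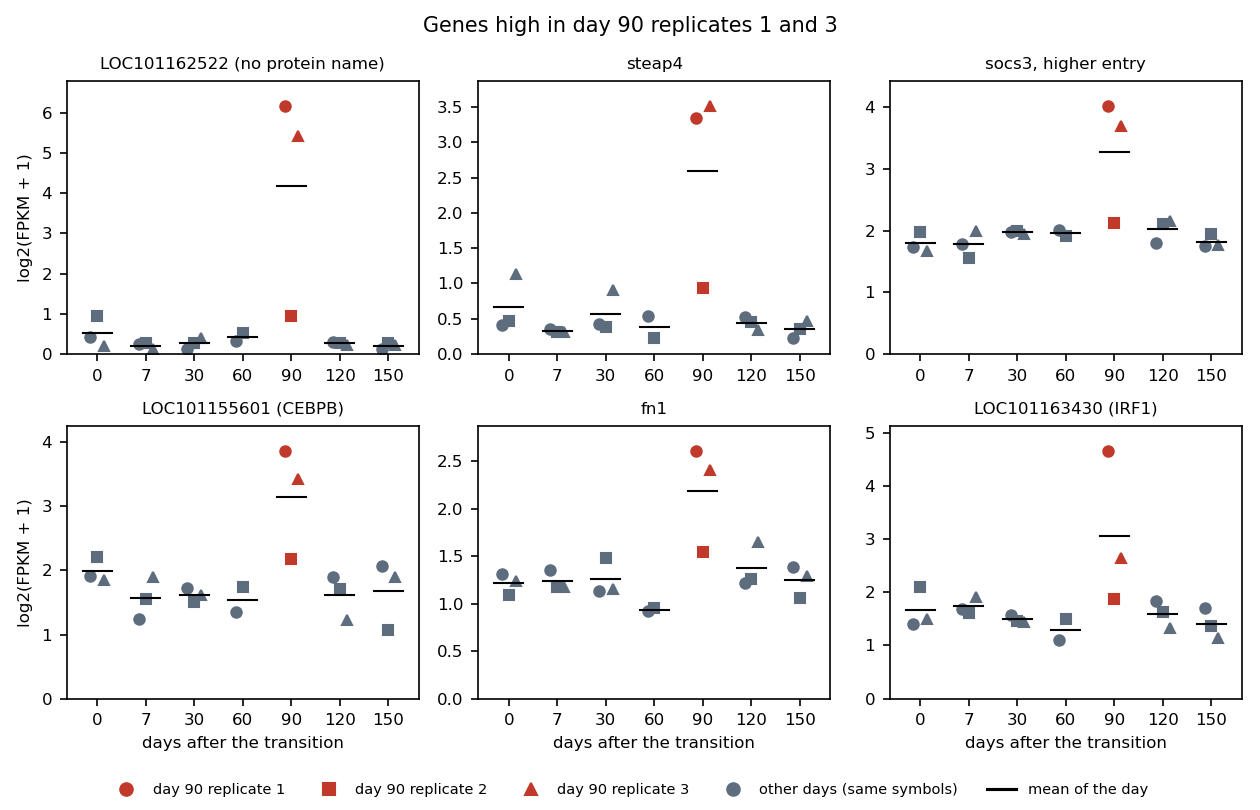
Log2(FPKM + 1) (y axis, from 0) by day after the transition (x axis) in 6 genes, each point 1 library and each bar the mean of a day. Day 90 replicates 1 and 3 are above all other libraries in every panel and day 90 replicate 2 lies at or within their range, while IRF1 alone of the 6 did not pass the test.

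Gene lists were compared library by library. Over all genes tested, 8012 of 15947 had a positive difference and 0.125% were called higher. In the list of interferon and antigen presentation genes, 27 members were matched and 19 tested. Of these, 18 had a positive difference, with a median of 0.55 against 0.001 over all genes. The 1 gene called higher was the socs3 entry with the higher values, which is also counted in the cytokine list below. By library the median was 1.01 in replicate 1, −0.001 in replicate 2 and 0.60 in replicate 3. In replicate 1, 15 of the 19 genes were above the highest of the 17 other libraries, in replicate 2 none was, and in replicate 3 there were 8. Over all tested genes, the shares above that range were 7.32%, 3.77% and 7.45%. These comparisons share their 17 libraries, so their values stand side by side as a description.

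The sensors, regulators and effectors on this list can be set out in turn. For the transcription factor IRF1 (LOC101163430) the values were 24.37, 2.69 and 5.28 FPKM against 1.15 to 3.29 with a median of 1.81 (log2 difference 1.52, adjusted p = 0.0944). The RNA sensor gene ifih1 was at 6.21, 2.51 and 5.96 FPKM against 2.24 to 4.07 (adjusted p = 0.301). Antiviral effectors were led by an Mx GTPase gene (LOC101163162) at 22.04, 2.17 and 14.48 FPKM against 0.43 to 7.15 (1.98, adjusted p = 0.153). The viperin gene rsad2 was at 28.57, 1.87 and 8.27 FPKM against 2.02 to 11.02 (adjusted p = 0.711). In rsad2 replicate 1 was the highest of all libraries and replicate 2 the lowest. For the immunoproteasome genes psmb8 and psmb9, replicate 1 alone was above the range, at 11.56 against a highest of 5.43 FPKM and at 8.49 against a highest of 3.02. One beta-2 microglobulin gene, LOC101174715, was at 77.33, 95.63 and 108.05 FPKM, all within the range of 72.88 to 113.77. Another, orla-b2m, which is not on the list and was named after its values were seen, was at 235.65, 114.42 and 178.64 FPKM against 25.59 to 244.03 (1.02, adjusted p = 0.24).

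The lists above were chosen with earlier results of these data known, and a further 3 were drawn up after values had been seen. The counts of all lists are thus a description only. Of 44 tested genes of cytokine and NF-kB signalling, 38 were positive and 2 were called (socs3 and CEBPB), with a median of 0.16. Those above the range of the 17 others numbered 21 in replicate 1, 3 in replicate 2 and 15 in replicate 3. The shares over all genes tested were 7.32%, 3.77% and 7.45%. The STAT3 gene itself, stat3, was at 25.09, 19.01 and 31.51 FPKM against 14.3 to 20.2 (0.51, adjusted p = 0.0838). An NF-kB inhibitor gene, LOC101162015 (NFKBIA), was at 18.21, 8.37 and 12.03 FPKM against 5.97 to 9.97 (0.68, adjusted p = 0.0895), and tnfaip2 at 4.57, 1.18 and 4.76 against 0.44 to 1.61 (1.16, adjusted p = 0.051). Like steap4, tnfaip2 reached the minimum mean only through day 90. The receptor gene of granulocyte colony-stimulating factor, csf3r, differed from these in that all 3 libraries were high, at 3.35, 3.27 and 3.86 FPKM against 0.9 to 2.88 (0.71, adjusted p = 0.0838). Among 18 tested chemokine and chemokine receptor genes, 16 were positive and none was called by limma, and the median was 0.29. At an unadjusted p under 0.05, 8 were higher, where the share over all genes tested was 5.49%. LOC101158504 (CXCL9) was at 33.26, 9.22 and 26.89 FPKM against 5.06 to 11.31 (1.23, adjusted p = 0.0705).

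Phagocyte and acute-phase genes, the last of the added lists, had 19 tested members with 15 positive, 1 called (steap4) and a median of 0.56. Its call is a gene that reached the minimum mean only through day 90, so this call is no support for the list. The median was positive in every day 90 library, at 0.74, 0.29 and 0.49, with 15, 18 and 16 positive genes in replicates 1 to 3, and 8, 0 and 8 above the range of the 17 others. The shares above that range over all genes tested were 7.32%, 3.77% and 7.45%. A granulin gene, LOC101168633, was at 19.06, 5.64 and 24.67 FPKM against 2.79 to 9.82 (1.40, adjusted p = 0.0572). The subunits of the phagocyte oxidase, LOC101157756 and LOC101170577, were at 3.32, 2.34 and 7.43 FPKM against 0.35 to 2.39, and at 4.08, 2.88 and 6.17 against 1.36 to 3.6 (adjusted p = 0.0531 each). In both, replicate 2 was near the top of the range and the other 2 were above it. Cathepsin S (LOC101165175), a lysosomal protease, was at 24.32, 9.66 and 23.12 FPKM against 6 to 13.04 (0.98, adjusted p = 0.0791).

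Markers of leukocytes were compared beside these results. Of 13 tested microglia and leukocyte genes, 9 were positive and none was called by limma. At an unadjusted p under 0.05, 3 were higher and 1 lower, where the shares over all genes tested were 5.49% and 3.97%. The list median was 0.44, −0.02 and 0.39 in replicates 1 to 3. One of the 9 positive genes, LOC101159074, reached the minimum mean only through day 90 and is no support for the list. Their summed FPKM was 610.8, 576 and 684.5, within the 413.6 to 746.8 of the other libraries, whose median was 521.8. The actin-bundling leukocyte gene lcp1 (LOC101162720) was at 8.06, 4.89 and 10.42 FPKM against 2.25 to 7.73, and coro1a (LOC101170433) at 20.92, 11.59 and 21.52 against 6.93 to 18.67. The microglial marker aif1 (LOC101161658) was at 39.41, 49.45 and 42.88 FPKM against 44.62 to 59.17, with replicates 1 and 3 below the range. The part of leukocytes in the inflammatory genes was not tested. In bulk tissue, more cells of a type and more RNA per cell cannot be told apart. Of 27 endothelium and pericyte genes, 21 were positive with a median of 0.11, and by library it was 0.02, 0.03 and 0.32. The claudin-5 gene LOC101166566, of the tight junctions of the blood-brain barrier, was at 7.57, 3.9 and 6.65 FPKM against 0.68 to 4.72 (1.36, adjusted p = 0.0657).

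**Figure D4:**
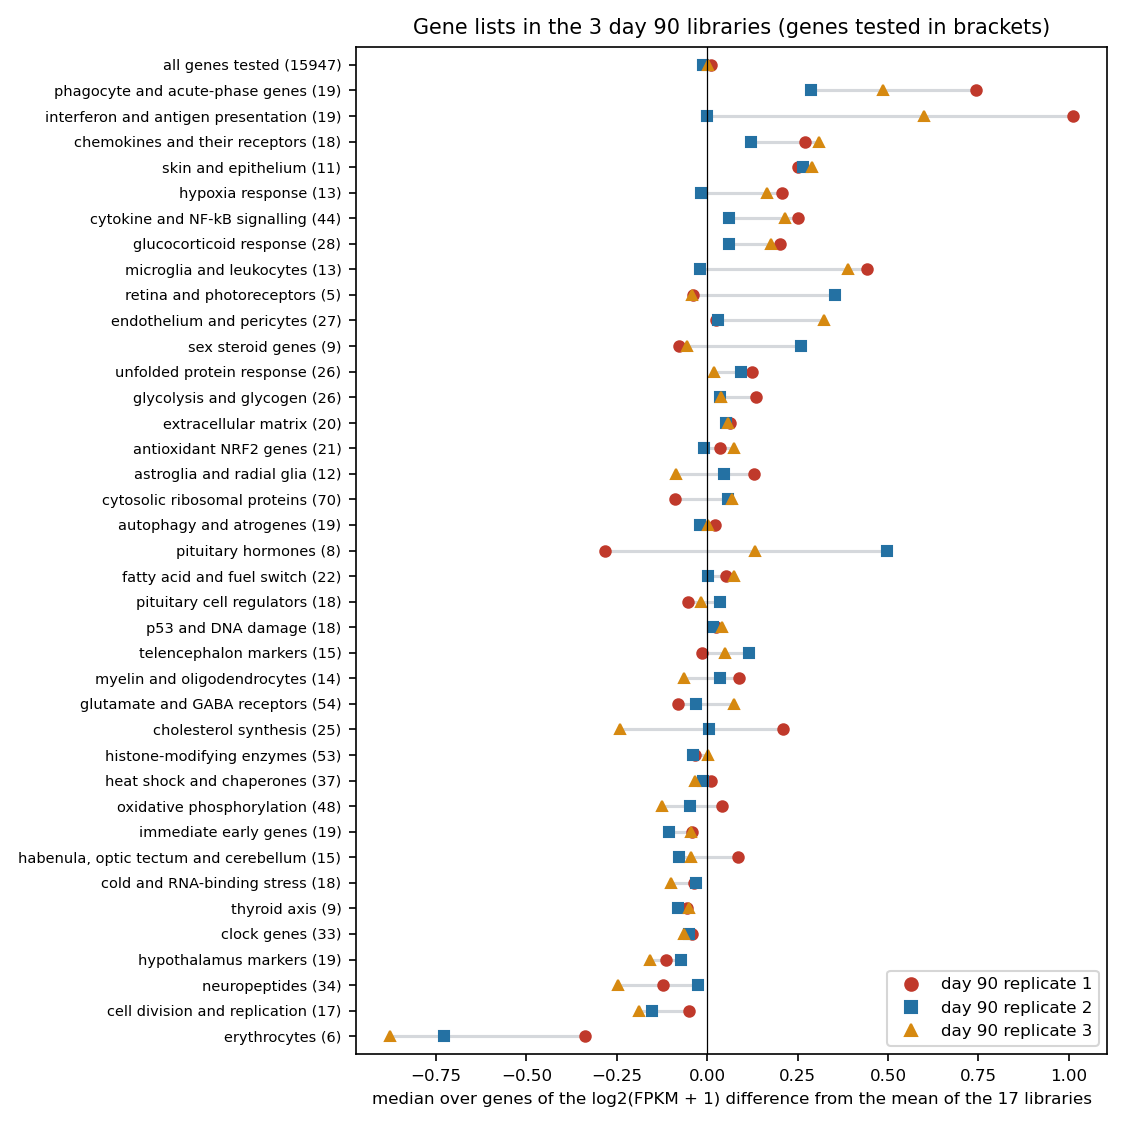
Median over the tested genes of each list (number in brackets) of the log2(FPKM + 1) difference from the mean of the 17 other libraries (x axis), 1 point per day 90 library. For interferon genes the medians are 1.01, −0.001 and 0.60 in replicates 1 to 3, for erythrocyte genes all 3 are negative, and for all genes tested they are near 0.

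In the glucocorticoid response list, 28 of 29 matched genes were tested, 18 were positive, 4 were called higher and none lower, with a median of 0.15. At an unadjusted p under 0.05, 10 were higher and 0 lower, where the shares over all genes were 5.49% and 3.97%, and 0.125% of all genes were called higher. The 4 were the FKBP5-like gene, pdk4, klf9 and CEBPB. This list too was chosen with earlier results of these data known, so the count of calls is no further support. Restricted to genes averaging 5 FPKM or more, the median was 0.04. For klf9, a Krüppel-like transcription factor gene induced by cortisol in other vertebrates, the values were 6.69, 4.43 and 6.45 FPKM against 1.77 to 4.8 with a median of 2.55. Its log2 difference was 0.92 (SE 0.16, adjusted p = 0.0345), with replicate 2 inside the range of the others. The call was lost in 8 of 20 removals, those without day 7 replicate 1 or 2, either day 60 library, day 90 replicate 1 or 3, or day 150 replicate 1 or 3 (adjusted p up to 0.244). In replicates 1 and 3, 10 and 12 of the 28 genes were above the highest of the 17 others, and in replicate 2 there was 1, the FKBP5-like gene, while 3 genes were below the lowest. Over all genes tested, the shares above were 7.32%, 3.77% and 7.45% in replicates 1 to 3, and 4.92% were below in replicate 2.

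Other known targets of the receptor did not all stand alike. The leucine zipper gene tsc22d3 (LOC101161414) was at 124.66, 171.88 and 126.52 FPKM, within 78.86 to 187.43, and per1 at 8.97, 12.8 and 10.7 within 7.88 to 17.72. For zbtb16 the values 1.83, 2.09 and 1.46 FPKM also lay inside those of other days, 1.24 to 2.92. One of the sgk1-like genes, LOC101169880, was at 3.81, 1.58 and 3.59 FPKM against 0.67 to 1.69 (0.86, adjusted p = 0.0771), whereas sgk1 was at 23.24, 20.63 and 23.84 within or just below 20.69 to 27.96. The transcription factor gene cebpd was at 14.76, 10.67 and 16.41 FPKM against 6.85 to 17.11 (0.51, adjusted p = 0.0895). It passed without day 30 replicate 2 (adjusted p = 0.0469) and without day 90 replicate 2 (adjusted p = 0.0101). The glucocorticoid receptor gene nr3c1 was at 11.51, 9.72 and 9.25 FPKM, within 7.95 to 15.27 (−0.07, adjusted p = 0.925). A second receptor gene, LOC100302444, was at 6.18, 6.88 and 6.91 within 3.44 to 9.19. CEBPB and NFKBIA are on both this list and the cytokine list, so the counts of these lists overlap.

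Some genes with no overlap missed the adjusted threshold, and those named here were chosen after their values were seen. An insulin-like growth factor binding protein gene, LOC101165969, was at 4.95, 3.29 and 4.35 FPKM against 1.47 to 3.03 (0.65, adjusted p = 0.0531). The arrestin domain gene arrdc2 was at 9.44, 9.22 and 9 FPKM against 4.39 to 8.34 (0.56, adjusted p = 0.0531). The abundant chaperone gene hsp90ab1, whose product holds steroid receptors together with FKBP proteins, was at 1154.99, 1259.07 and 1317.96 FPKM against 904.25 to 1143.64 (0.26, adjusted p = 0.0531). The heat shock list as a whole had 13 of 37 positive and a median of −0.04. An amino acid transporter gene, LOC101173729, was at 33.18, 39.14 and 28.65 FPKM against 7.49 to 28.17 (1.03, adjusted p = 0.0967). The PAR bZIP transcription factor gene LOC101172818 (TEF), which is driven by the circadian clock, was at 59.03, 47.88 and 51.4 FPKM against 22.25 to 47.2 (0.60, adjusted p = 0.0705). Of 33 clock genes 13 were positive and none was called by limma, with 1 higher and 2 lower at an unadjusted p under 0.05. The shares over all genes tested at that p were 5.49% higher and 3.97% lower. Lower without overlap was gad1, which makes the transmitter GABA, at 30.72, 29.38 and 30.11 FPKM against 31.81 to 41.95 (−0.30, adjusted p = 0.0531).

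Among the 3 genes called lower was gata-1, which encodes the master transcription factor of red blood cells. Its values were 2.11, 2.22 and 1.66 FPKM at day 90, and the others ran from 2.99 through a median of 5.04 to 10.29 FPKM. All 3 libraries were below every other, and the day 90 mean of 1.997 ± 0.297 FPKM (SD, n = 3) compares with 5.729 ± 1.924 (SD, n = 17). The log2 difference was −1.12 with an SE of 0.19 (adjusted p = 0.0339). The call was lost without day 60 replicate 1 or 2 and without day 90 replicate 1 or 3, with adjusted p up to 0.209. It was kept in the remaining 16 removals, and against days 60 and 120 only (−1.31, adjusted p = 0.0407).

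Other genes of red blood cells did not pass the test. Of 9 matched erythrocyte genes 6 were tested, 5 were negative and 1 was called, with a median of −0.65, and −0.34, −0.73 and −0.88 by library. Over all genes tested, 7935 of 15947 were negative and 0.0188% were called lower. Erythrocytic spectrin beta (LOC101175117), of the membrane skeleton, was at 0.6, 0.57 and 0.38 FPKM against 0.74 to 2.36 (−0.54, adjusted p = 0.244), so that the groups did not overlap. The anion exchanger band 3 (LOC101155769) was at 3.19, 2.92 and 1.51 FPKM against 1.99 to 12.79 (−0.77, adjusted p = 0.248), with replicate 3 below the range. Hemoglobin alpha-D (LOC101170468) was at 2.13, 0.99 and 0.84 FPKM against 1.1 to 5.65 (−0.69, adjusted p = 0.275), with replicates 2 and 3 below it. The haem synthesis gene ALAS2 (LOC100049501) was at 19.2, 10.76 and 12.08 FPKM within 8.18 to 43.92. The nucleotidase gene nt5c3a, also used by other cells, was at 11.34, 13.4 and 15.23 against 9.99 to 13.56. Outside the list, gfi1b, a partner of GATA1 in erythroid cells, was named after its values were seen. It was at 0.3, 0.47 and 0.48 FPKM against 0.72 to 4.62 (−0.95, adjusted p = 0.0838). The summed FPKM of the erythrocyte list was 38.72, 30.99 and 31.73, inside the 26.51 to 88.29 of the others, whose median was 47.67. The share of blood left in the tissue was not tested as the source of these values.

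**Figure D5:**
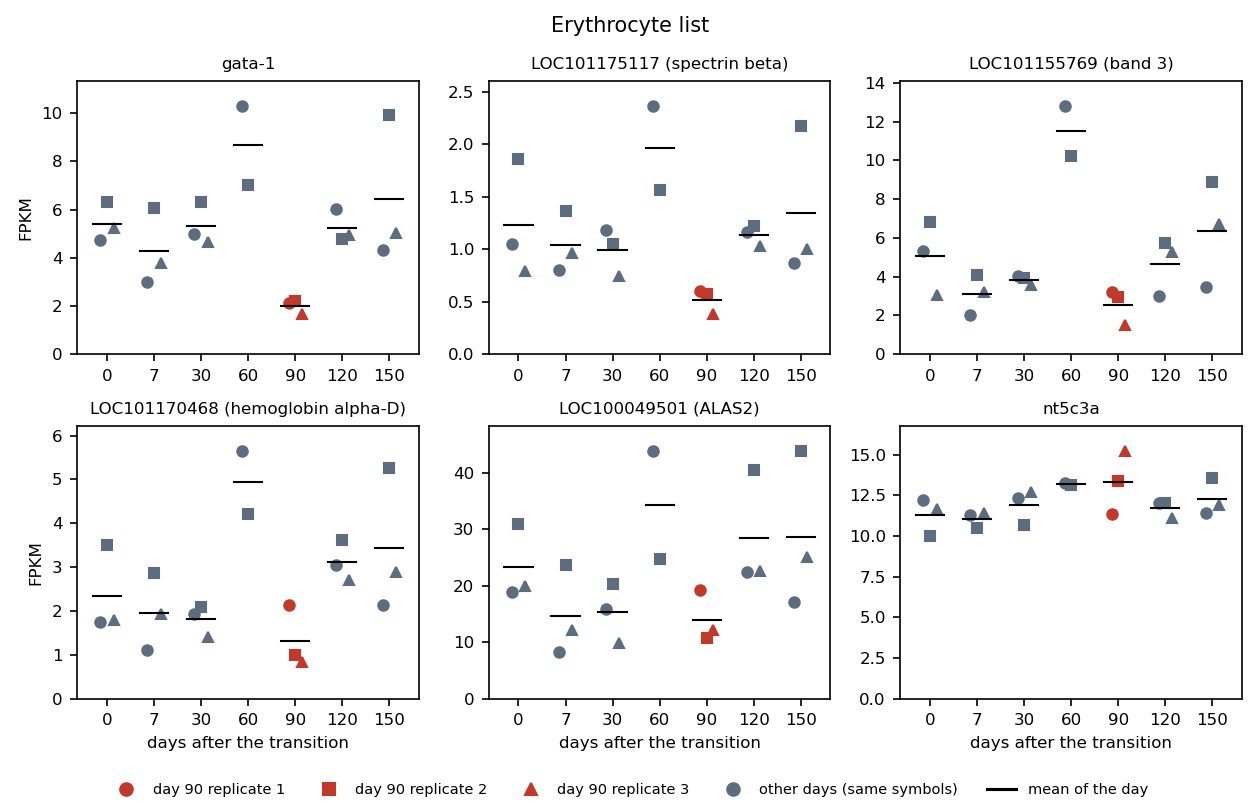
FPKM (y axis, linear, from 0) by day after the transition (x axis) in the 6 tested erythrocyte genes, each point 1 library and each bar the mean of a day. The day 90 libraries are below all others in gata-1 and spectrin beta, overlap with them in band 3, hemoglobin alpha-D and ALAS2, and are not low in nt5c3a.

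The other 2 genes called lower had narrow differences. LOC101172396, described as a retinal-specific ABC transporter, was at 1.32, 1.27 and 1.39 FPKM against 1.92 to 3.53 with a median of 2.35 (−0.54, SE 0.10, adjusted p = 0.0355). Retina and photoreceptor genes summed to 8.96, 11.92 and 6.62 FPKM in the same libraries, against 4.04 to 23.09, and their part was not tested. LOC101163201, a guanine nucleotide exchange factor-like gene of the Ral pathway, was at 8.83, 8.99 and 9.14 FPKM against 10.27 to 12.68 (−0.31, SE 0.06, adjusted p = 0.0371). Each call survived 9 of 20 removals of a single library and was lost, among others, without any 1 of the day 90 libraries (adjusted p up to 0.227 and 0.244).

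Several hormone genes of the reproductive axis were within the range of other days. The luteinizing hormone subunit gene lhb was at 82.09, 81.36 and 59.03 FPKM, with the others between 6.61 and 241.49 and a median of 37.99 (0.48, adjusted p = 0.726). For the follicle-stimulating hormone subunit gene fshb the values were 105.36, 96.57 and 55.68 FPKM within 18.46 to 321.71 (−0.47, adjusted p = 0.84). Brain aromatase, cyp19b, was at 341.56, 341.63 and 169.09 FPKM within 74.2 to 490.48, and the more abundant of the entries of the neuropeptide gene npb at 137.39, 183.2 and 79.51 within 41.44 to 347.42. Of the 9 tested sex steroid genes, 3 had a library outside the range. In replicates 1 to 3, 7.32%, 3.77% and 7.45% of all genes tested were above that range, and 4.77%, 4.92% and 5.61% below. The count is thus a description and no result about the list. One of the esr2 entries, an oestrogen receptor gene, was at 1.84, 4.23 and 2.82 FPKM against 1.06 to 2.76, with replicates 2 and 3 above. The steroid reductase gene srd5a1 was above in replicate 2, at 19.26 against a highest of 16.73, and the less abundant npb entry was below in replicate 3, at 2.41 against a lowest of 2.49. The kisspeptin gene kiss-2, named after its values were seen, was at 2.61, 5.22 and 4.75 FPKM against 4.03 to 12.2 (−0.60, adjusted p = 0.212). None of these genes passed the test. The fit weighs a difference against the spread within days, which have 3 libraries or fewer. A missing call in the hormone genes is thus no evidence that they were unchanged. The sum of pituitary hormones was 3618, 7779 and 7018 FPKM in the 3 libraries, within 786.9 to 9081, and the amount of pituitary in each sample was not tested. Of 34 neuropeptide genes 26 were negative and none was called by limma, with 4 lower at an unadjusted p under 0.05, and the median was −0.13, with −0.25 in replicate 3 and −0.03 in replicate 2. Of 19 hypothalamus markers 15 were negative and none was called by limma, with 3 lower at an unadjusted p under 0.05 and a median of −0.12. At that unadjusted p, 3.97% of all genes tested were lower, and 7935 of 15947 had a negative difference.

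Each day 90 library also had values of its own. Counted singly, replicate 1 was above all 17 others in 1167 genes (7.32%) and below them in 761 (4.77%), replicate 2 in 601 (3.77%) and 785 (4.92%), and replicate 3 in 1188 (7.45%) and 895 (5.61%). By over 1 on the log2 scale, replicate 1 was above in 35 genes (0.219%), replicate 2 in 4 (0.0251%) and replicate 3 in 19 (0.119%). Below the range by that much were 2 genes in replicate 1 (0.0125%), none in replicate 2 and 4 in replicate 3 (0.0251%). Pairs of day 90 libraries differed by over 1 on that scale in 456 to 492 genes, and pairs from the same other day in 376 to 540. The spread within day 90, a median SD of 0.13, was inside the 0.10 to 0.15 of the other days. Replicates 1 to 3 were the highest of all 20 libraries in 975, 444 and 969 genes, and libraries of other days in 474 to 2030. They were the lowest of all 20 in 653, 670 and 798 genes, and libraries of other days in 464 to 1735. The counts of single libraries are thus no trait of day 90.

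Genes chosen as farthest from the range in 1 library had a mean of at least 5 FPKM over all 20 libraries. Day 90 was included in that mean, so high values there could admit a gene. LOC101162522, LOC101163714 and LOC101167545 met this minimum only through day 90, so they had to be high there to be chosen. In replicate 1 the farthest gene above the others, after LOC101162522, was a goose-type lysozyme gene, LOC101163714 (lysozyme g, an antibacterial enzyme). It was at 99.52 FPKM there, at 3.15 and 3.53 in replicates 2 and 3, and at 5.57 at most on other days. LOC101167545, described as polyubiquitin, was at 66.92, 2.08 and 12.11 FPKM against 0.7 to 8.3. The phospholipase-like gene LOC101173355 (HRAS-like suppressor 3) was at 89.64, 11.78 and 30.94 against 7.27 to 19.53. These genes had the same order of libraries, with replicate 1 far above and replicate 2 within the range, but did not pass the test of the day (adjusted p = 0.309, 0.296 and 0.14). Far below the range in replicate 1 were aamdc at 1.88 FPKM against 4.71 to 10.74 and LOC100533499 at 3.08 against 6.54 to 23.4. In cholesterol synthesis, replicate 1 was above the range in 8 of 25 genes and replicate 3 below it in 7, with list medians of 0.21, 0.004 and −0.24. The shares over all genes tested were 7.32% above in replicate 1 and 5.61% below in replicate 3. One of the 25, LOC111947823, reached the minimum mean of 1 FPKM only through day 90 and is no support for the list. Squalene epoxidase, sqle, was at 13.44, 4.96 and 1.25 FPKM against 0.8 to 9.41.

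Replicate 2 stood out in fam192a, at 26.87, 65.52 and 28.34 FPKM in the 3 libraries against 23.29 to 32.06. The pituitary hormone somatolactin (LOC100049402) was at 141.37, 885.56 and 284.24 FPKM against 24.6 to 569.19. LOC101164014, described as editase B2, was low in replicate 2, at 7.41, 3.84 and 7.31 against 7.19 to 8.9, as was acbd7, at 27.34, 11.56 and 26.12 against 21.64 to 63.63. In replicate 3 fkbp15, a further FK506-binding protein gene, was at 18.69 FPKM, with 6.75 and 7.31 in the other 2 day 90 libraries and 5.97 to 7.44 on other days. LOC101161692 (papilin) was at 3.39, 4.6 and 1.73 FPKM against 3.58 to 11.79, and the smooth muscle actin gene acta2 at 8.28, 9.04 and 4.52 against 7.65 to 16.63. LOC101158164, described as an oligosaccharyltransferase subunit, was listed at 0 in replicate 3 and was at 5.85 and 35.96 FPKM in replicates 1 and 2. In papilin both replicates 1 and 3 were below the range. None of these genes passed the test of the day.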

How the data were processed

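Polyadenylated RNA was purified after DNase treatment and sequenced from both ends with strand kept, per the labels' protocols. The deposited table gives FPKM for each gene in each sample, per the file headers. The submitters' processing notes name Bowtie2 (2.2.5) and RSEM (1.2.12), and the genome build is not given in the sources used here. Since RSEM divides reads among near-identical copies, the values of close paralogs are uncertain. Of 22615 identifiers, 21722 matched the RefSeq gene table of ASM223467v1, used for names only, and 9 symbols that had become dates were restored. Names after a locus number come from the deposited protein descriptions.

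From these values, limma (3.58.1, R 4.3.3) was fitted to log2(FPKM + 1) with 1 mean per day over all 20 libraries (13 residual degrees of freedom, median residual SD 0.157). The contrast was the day 90 mean minus the mean of the 17 other libraries, in a two-sided test whose prior variance varies with the level, at a threshold of 0.05. The fit was also run on simulated data with independent noise and changes shared by all 3 day 90 libraries. Genes high only in replicates 1 and 3 differ from that setting, so the run is no support for their calls. Tables and plots used Python (3.11.15), pandas (2.3.3), numpy (2.4.6) and matplotlib (3.10.9).

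Members, tests and gene lists were chosen with earlier results of these data known, and 3 lists (cytokine and NF-kB signalling, chemokines, phagocyte and acute-phase genes) were added after values were seen. Lists match symbols, synonyms or protein names and have counts and medians, no test. Named genes were up to 12 of the largest differences each way past the threshold, and up to 4 members per list by p. Per day 90 library, the 5 farthest above and below the 17 others at a mean of at least 5 FPKM were added. Genes fixed by name were the FKBP5-like gene LOC101157675, kctd3, phkg2, a few others, and genes of the reproductive, glucocorticoid and clock systems. They too were picked with earlier results of these data known. As alternatives, the pseudocount was set to 0.1, the minimum mean was removed or raised to 5 FPKM, libraries were quantile normalized or rescaled to one total, and the prior was fitted with no trend. Further alternatives were sample weights, 2 groups, equal weight per day, days 60 and 120 only, no day 0 libraries, each day 90 library alone, and each library left out. A few genes are not reported here.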

Additional observations from a re-analysis of the deposited data

How the results depend on the processing

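The count of 20 higher and 3 lower genes changed with several settings. Higher genes numbered 39 without the filter, 11 at a mean of at least 5 FPKM, 4 against days 60 and 120 only and 6 without the day 0 libraries. With a single day 90 library, whose spread is assumed to be that of the other days, 65 were higher for replicate 1 and 6 for replicate 2. Lower genes numbered 5 with a pseudocount of 0.1, 1 after rescaling to the same total, 1 without the day 0 libraries, 9 for replicate 1 alone and 1 for replicate 2 alone. With 1 library left out, from 2 to 97 genes were higher and from 0 to 9 lower. Of the 23 called genes, 23 remained with the pseudocount of 0.1, sample weights or equal weight per day, 18 in the 2-group fit and after rescaling, 20 after quantile normalization and 5 without day 0.

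Genes outside the range of the 17 others are fewer at a mean of at least 5 FPKM, which tests fewer genes. There, 736 were above and 494 below in replicate 1, 393 above in replicate 2 and 750 above in replicate 3. With 1 library of another day left out, the counts above ran from 1192 to 1263, from 623 to 712 and from 1220 to 1333 in replicates 1 to 3, and those below from 786 to 835, from 818 to 887 and from 922 to 983. No paired analysis was possible because the labels give no replicate numbers. Read depth is unknown, so no counting error can be given, and the number of samples limits the precision.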
